A study of Mus musculus with 6 samples.

Results

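Hedgehog signalling in mouse embryo fibroblasts was described through 9 genes of the receiving side of the pathway, chosen by symbol. They were the transcription factors Gli1, Gli2 and Gli3, the receptor Ptch1 and its relative Ptchd4, the signal transducer Smo, the ligand-binding inhibitor Hhip, the coreceptor Gas1 and the intracellular inhibitor Sufu. All 9 symbols were found, among 55401 genes in the deposited table. Of the 9 genes, 7 had reads and an adjusted p-value, and 2, Gli1 and Hhip, had no reads in any library.

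In vertebrates, hedgehog ligands bind the membrane protein Ptch1, which in their absence keeps Smo inactive. Ligand binding lifts this block, Smo moves into the primary cilium, and the GLI factors are released from Sufu and act in the nucleus. Gli2 is the main activator and Gli3 the main repressor, whereas Gli1 is an activator that is itself a target gene of the pathway, like Ptch1 and Hhip. Fibroblasts carry primary cilia and are a common cell type in which the pathway is studied.

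RNA was measured in immortalised mouse embryo fibroblasts (iMEF) derived from Ash2l fl/fl animals, with a Cre-ER recombinase driven by a CAGG promoter. In both groups exon 4 of the endogenous Ash2l had been deleted, and the cells lived on human ASH2L with an N-terminal FKBP12F36V tag and HA tags, delivered by a lentivirus. ASH2L belongs to the core of KMT2 (COMPASS) complexes, the enzymes that place methyl groups on lysine 4 of histone H3. The untreated group (labelled WT) received no compound, and the other group received dTAG-13, a PROTAC that ties the tagged ASH2L to the E3 ligase component Cereblon and so causes its degradation, for 24 h. According to the study these were cells of the clone NG3, thus a single clone. No untagged cells treated with dTAG-13 were among the samples, so that in these values an effect of the compound itself cannot be told apart from that of ASH2L loss. The study reports that dTAG-13 left the proliferation of control iMEF cells unaffected, which is no measure of their RNA.

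Per the labels there were 3 libraries of each group, the study describes fewer replicates, and the values of weakly expressed genes matched 5 libraries. Nothing in the labels says that these were separate cultures, so the p-values may measure technical spread only. The table holds, for each gene, a mean normalized count over the libraries of both groups, the shrunken log2 fold change (treated over untreated) with a standard error (SE), and p-values, but no value of a single library or group. Therefore the spread is given as the deposited SE or as a normal 95% interval made from it, and all fold changes, SEs and adjusted p-values are those of the authors' DESeq2 test with Benjamini-Hochberg adjustment. A gene was called lower or higher when its adjusted p was under 0.05. The mouse Ash2l gene had a log2 fold change of −0.12 ± 0.20 (SE, adjusted p = 0.724), which is no check of the treatment, since dTAG-13 acts on the protein and the human transgene has no row in the table. Fibroblast identity was seen in most of the markers. All 10 were tested, with a summed mean normalized count of 279724, much of it from Col1a1 (86116) and Col1a2 (109792). Lum, at 1.73, lay just above the lowest tested count of 1.69, and Pdgfra had 66.5. Against this, the epithelial list summed to 7.68 (Epcam, Krt8, Krt18 and Krt5 at 0) and the endothelial list to 22.9 (Cdh5 at 0). The immune list summed to 36.1 (Adgre1 and Cd3e at 0) and the neural list to 333 (Sox10 at 0), the last mostly Map2. Of the fibroblast markers 4 were called lower and 2 higher, Map2 was called lower and the endothelial marker Tek higher, and the part of such shifts in the results was not tested.

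After 24 h with dTAG-13 the hedgehog pathway genes did not move as a block. Ptchd4 fell 9.25-fold and Gli3 fell 1.46-fold, while Gli2 rose 1.69-fold and Gas1 rose 1.51-fold. Ptch1, Smo and Sufu were not called, and no change could be measured for Gli1 and Hhip. Thus 2 of the 7 tested genes were called lower, against 12.5% of the 16773 genes tested, and 2 were called higher, against 7.45% (19.9% in either direction). All 7 had mean normalized counts between 115 and 869, and among the 8236 tested genes with mean normalized counts of 100 or more, calls were more frequent, with 18.1% lower and 9.49% higher (27.6% in all). The median log2 fold change of the 7 genes was −0.02, and that of all tested genes was also −0.02 after rounding. Since RNA was taken from whole cultures, fewer cells with a transcript and less of it per cell cannot be told apart.

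**Figure D1:**
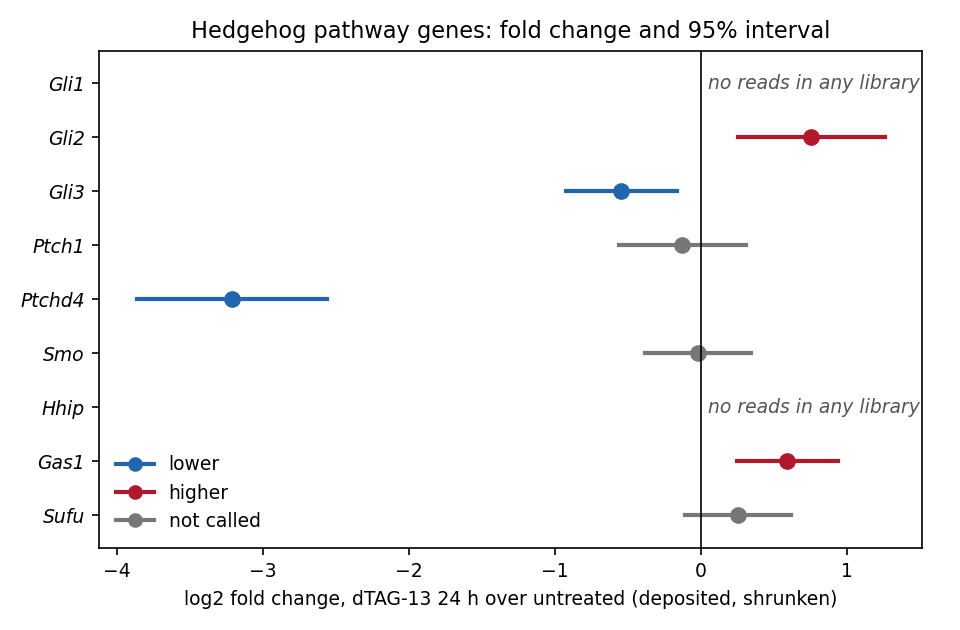
Log2 fold change (24 h dTAG-13 over untreated) for each tested hedgehog pathway gene, with its normal 95% interval, and the 2 genes without reads named. The interval of Ptchd4 lies far below 0, from −3.86 to −2.56, those of Gli3 (below) and of Gli2 and Gas1 (above) lie clear of 0, and those of Ptch1, Smo and Sufu include it.

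Among the GLI factors, Gli2 and Gli3 were called in opposite directions. Gli2 (ENSMUSG00000048402.14, chr1:118834132-119053619, minus strand, GRCm38) had a mean normalized count of 127 and a log2 fold change of 0.76 ± 0.26 (SE; 95% interval 0.25 to 1.26, adjusted p = 0.00592). It ranked 753 from the top among the tested genes, so 95.5% of them had a smaller fold change. Gli3 (ENSMUSG00000021318.15, chr13:15463235-15730026, plus strand) had a mean normalized count of 458 and fell by 0.54 on the log2 scale (SE 0.19; 95% interval −0.93 to −0.16, adjusted p = 0.0138). It ranked 2028 from the bottom among the tested genes. The log2 fold changes of Gli2 and Gli3 lay 1.30 apart and their intervals did not overlap, but their difference could not be tested without values per library. The fall of Gli3 was the weakest of the 4 calls, and it was lost at an adjusted p of 0.01, under a rule that also asked for an absolute log2 fold change over 0.58, and when the zero point was moved to housekeeping genes (−0.29, recentred adjusted p = 0.185).

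Gli1 (ENSMUSG00000025407.7, chr10:127329882-127341974, minus strand), the activator that is switched on by the pathway, was listed at 0. One read in a single library would have given a mean normalized count of 0.139 to 0.362, and a count of 0 allows up to 3 reads, or a mean normalized count of up to 1.09, by counting error only. A zero was common in these cells, as 31.1% of the 21897 protein-coding genes had no reads, while none of the 16 housekeeping genes did. No fold change can be given for Gli1, and the table does not tell whether it differed between the groups.

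As KMT2 complexes act at promoters, the bases before the annotated start sites are shown for the 4 called genes and, as an uncalled gene beside them, the receptor Ptch1. They are 250 bases each, from the RefSeq promoter table of GRCm38.p6, read 5′ to 3′ on the strand of the gene, and capitals mark CpG dinucleotides. The Gli2 window (chr1:119053620-119053869, minus strand) lies directly before the gene and holds 22 CpG. The Gli3 window (chr13:15463473-15463722, plus strand) holds 34 CpG, and GENCODE M21 places it inside the Gli3 locus and on an exon of the antisense transcript gene Gm6556.
Gli2: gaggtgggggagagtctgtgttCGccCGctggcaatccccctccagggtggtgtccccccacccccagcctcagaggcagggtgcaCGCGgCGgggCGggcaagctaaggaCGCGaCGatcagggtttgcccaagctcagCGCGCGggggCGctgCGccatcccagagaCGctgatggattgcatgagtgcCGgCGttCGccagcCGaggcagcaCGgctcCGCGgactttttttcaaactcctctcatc
Gli3: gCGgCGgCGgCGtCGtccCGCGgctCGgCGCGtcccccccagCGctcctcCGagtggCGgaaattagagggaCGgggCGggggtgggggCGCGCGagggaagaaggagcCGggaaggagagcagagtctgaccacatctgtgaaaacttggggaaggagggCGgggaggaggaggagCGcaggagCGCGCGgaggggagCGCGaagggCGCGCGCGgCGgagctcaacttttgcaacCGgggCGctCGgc
Of the 2 GLI factors with reads, which were called in opposite directions, Gli3 thus had the window with more CpG.

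Of the receptors and the transducer, only the Patched-related gene was called. Ptchd4 (ENSMUSG00000042256.5, chr17:42315947-42505077, plus strand) encodes a membrane protein with a Patched domain, which in human cells has been described as a p53-responsive gene whose product can dampen hedgehog signalling. It had a mean normalized count of 115 and fell by 3.21 on the log2 scale (SE 0.33; 95% interval −3.86 to −2.56), with an adjusted p of 4.71e-21. Among the 16773 tested genes it ranked 47 from the bottom, and among the 8236 with mean normalized counts of 100 or more it ranked 5. The SE of Ptchd4 was the largest of the 7 genes, above the median SE of 0.24 of the 1907 tested genes whose mean normalized count lay within 1.5 times its own. The fall was several times this SE.

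Ptch1 (ENSMUSG00000021466.12, chr13:63508328-63573598, minus strand), the ligand receptor and itself a target of the pathway, had a mean normalized count of 188. Its log2 fold change was −0.13 ± 0.22 (SE; 95% interval −0.56 to 0.31, adjusted p = 0.730). Smo (ENSMUSG00000001761.7, chr6:29735503-29761365, plus strand), the transducer that Ptch1 restrains, had a mean normalized count of 231 and a log2 fold change of −0.02 ± 0.19 (SE; 95% interval −0.39 to 0.34, adjusted p = 0.958). The interval of Ptch1 reaches as far down as the value of Gli3, so a fall of that size is not excluded for Ptch1. The sign of both values turned to positive when the zero point was moved to housekeeping genes (0.13 for Ptch1, 0.24 for Smo), again without a call.

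The promoter windows of the 2 Patched family genes are shown because they differ in CpG content within and between the genes. RefSeq gives 2 start sites for Ptchd4. The first window (chr17:42315697-42315946, plus strand) lies directly before the gene and holds 4 CpG, and the second (chr17:42316350-42316599) lies in an intron of the gene in GENCODE M21 and holds 24. The Ptch1 window (chr13:63565736-63565985, minus strand) lies inside the Ptch1 locus, between exons, and holds 41 CpG.
Ptchd4 start 1: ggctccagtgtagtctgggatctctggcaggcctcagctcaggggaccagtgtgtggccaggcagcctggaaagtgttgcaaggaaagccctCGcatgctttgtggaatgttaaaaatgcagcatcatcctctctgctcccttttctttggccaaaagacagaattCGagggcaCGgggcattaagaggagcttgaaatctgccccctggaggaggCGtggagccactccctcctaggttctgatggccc
Ptchd4 start 2: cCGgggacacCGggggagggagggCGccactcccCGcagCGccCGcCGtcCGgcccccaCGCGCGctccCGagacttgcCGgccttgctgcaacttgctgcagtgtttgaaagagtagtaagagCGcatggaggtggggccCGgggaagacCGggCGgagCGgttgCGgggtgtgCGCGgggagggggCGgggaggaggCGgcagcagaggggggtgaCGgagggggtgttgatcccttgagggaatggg
Ptch1: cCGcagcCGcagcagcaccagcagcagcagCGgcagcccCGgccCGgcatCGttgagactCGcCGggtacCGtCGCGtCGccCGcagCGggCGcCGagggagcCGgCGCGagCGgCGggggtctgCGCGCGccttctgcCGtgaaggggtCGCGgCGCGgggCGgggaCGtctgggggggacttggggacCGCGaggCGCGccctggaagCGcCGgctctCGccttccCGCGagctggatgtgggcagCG
The table has 1 value per gene, so which of the Ptchd4 start sites was used in these cells was not measured.

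On the ligand side, the coreceptor gene Gas1 was called higher and the inhibitor gene Hhip had no reads. Gas1 (ENSMUSG00000052957.8, chr13:60174405-60177365, minus strand) encodes a membrane-anchored protein that binds hedgehog ligands together with Ptch1, and was first known as a gene of growth-arrested fibroblasts. It had the highest mean normalized count of the group, 869, and a log2 fold change of 0.59 ± 0.18 (SE; 95% interval 0.24 to 0.94, adjusted p = 0.00278). It ranked 1080 from the top among the tested genes. Gas1 shared 589 of its 2961 exonic bases, or 19.9%, with the long non-coding RNA gene Gm48488 on the opposite strand. The labels name a stranded library kit and the study names a 3′-end kit, so it is uncertain whether reads of these partners were kept apart, and the mean normalized count of Gm48488 was only 1.63. The other tested hedgehog pathway genes shared at most 1.96% of their exonic bases with another gene.

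The Gas1 window (chr13:60177536-60177785, minus strand) holds 10 CpG, fewer than the windows of the GLI factors, and lies on an exon of Gm48488.
Gas1: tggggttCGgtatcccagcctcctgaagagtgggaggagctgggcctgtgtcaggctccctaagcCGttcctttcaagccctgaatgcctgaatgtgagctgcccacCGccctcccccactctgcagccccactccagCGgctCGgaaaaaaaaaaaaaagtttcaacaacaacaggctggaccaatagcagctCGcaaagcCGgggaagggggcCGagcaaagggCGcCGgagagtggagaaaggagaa
Between the called genes, the Gas1 window thus held fewer CpG than the windows of Gli2, Gli3 and the second Ptchd4 start.

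Hhip (ENSMUSG00000064325.4, chr8:79965851-80058006, minus strand), whose product binds and sequesters hedgehog ligands at the cell surface, was listed at 0 like Gli1, with the same upper limit. Sufu (ENSMUSG00000025231.17, chr19:46396896-46488804, plus strand), which holds GLI factors in the cytoplasm, had a mean normalized count of 302 and a log2 fold change of 0.25 ± 0.18 (SE; 95% interval −0.11 to 0.61, adjusted p = 0.323). Sufu crossed the threshold only with the zero point at housekeeping genes, where its value was 0.51 (recentred adjusted p = 0.0186).

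**Figure D2:**
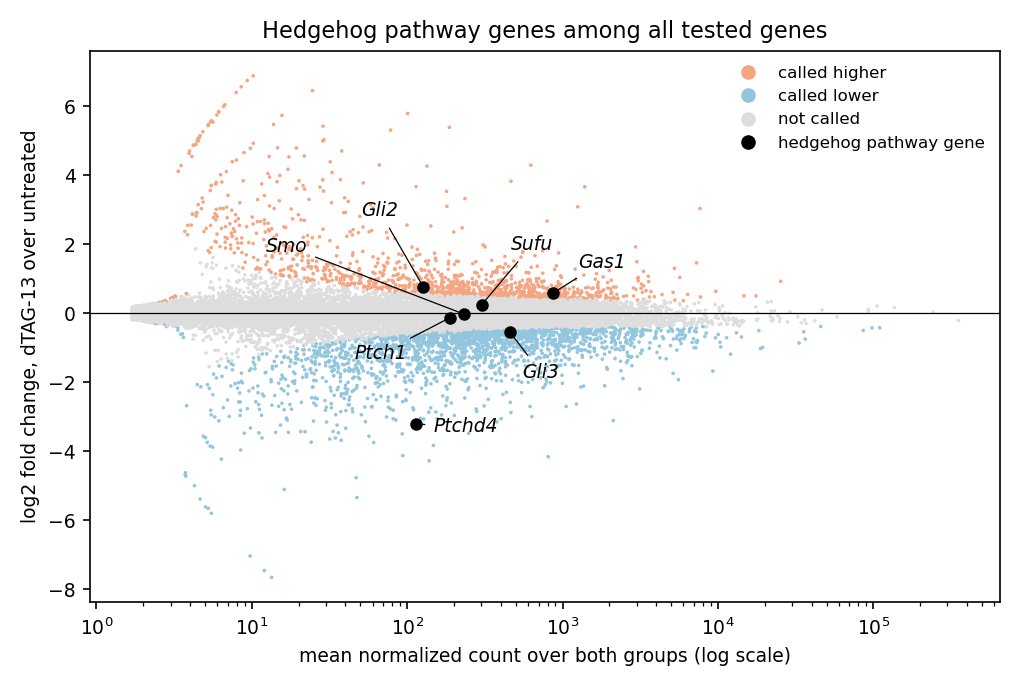
Log2 fold change against mean normalized count (log scale) for all 16773 tested genes, coloured by call, with the 7 tested hedgehog pathway genes in black. Ptchd4, at −3.21, lies below nearly all genes of like count, whereas the changes of Gli2, Gli3 and Gas1 are much smaller.

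The size of the calls can be read against genes of like count. Between 26.5% and 28.8% of the genes within 1.5 times the mean normalized count of each tested hedgehog pathway gene were called in either direction. The median SE of these genes ran from 0.17 beside Gas1 to 0.24 beside Ptchd4. Gli2 had an SE of 0.26 against a median of 0.23, Gli3 0.19 against 0.18, and Ptch1 0.22 against 0.21. Smo had 0.19 against 0.20, Sufu 0.18 against 0.19 and Gas1 0.18 against 0.17. Apart from Ptchd4, the precision was therefore like that of other genes at these counts.

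A promoter window of 300 bases, 250 before and 50 after the start, was found for 8 of the 9 genes, and Gli1 had no entry in the table. The ratio of observed to expected CpG was 1.12 for Gli3, 1.09 for Ptch1, 0.83 for Gli2, 0.75 for Hhip, 0.59 for Gas1, 0.51 for Sufu and 0.50 for Smo. For Ptchd4 it was 0.26 at the first start and 0.75 at the second. The median over 13887 windows of 10873 tested genes was 0.74. Gli3 and Ptch1 lay above 97.2% and 95.5% of these windows, Gli2 lay above 64.2%, and the first Ptchd4 window lay above only 11.9%. Across all genes with a window, the medians were 0.76 for genes called lower, 0.70 for genes called higher and 0.74 for uncalled genes, so these groups of genes differed little. The consensus motif of GLI factors, GACCACCCA, searched on both strands, was in 0 of the 9 windows of the hedgehog pathway genes and in 0.253% of all 32851 windows, which says only that these letters are not in the windows.

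**Figure D3:**
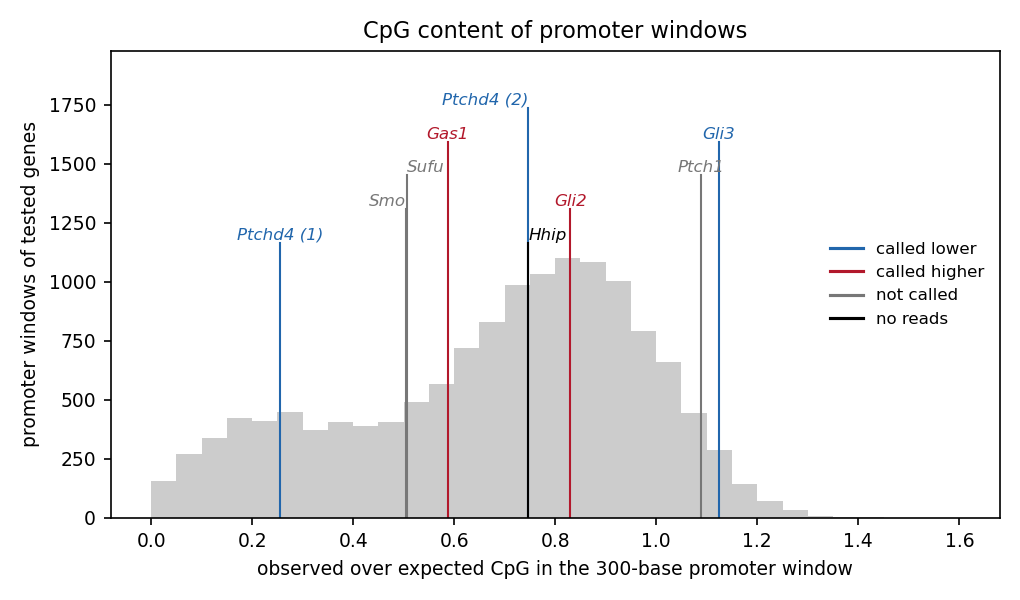
Distribution of the observed over expected CpG ratio in the promoter windows of tested genes (grey bars, number of windows), with a line for each window of the hedgehog pathway genes, coloured by call. The 2 Ptchd4 windows lie apart, at 0.26 and 0.75, and Gli3 and Ptch1 lie at the CpG-rich end although only Gli3 was called.

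The deposited fold changes were set by spike-in RNA, which per the labels was added according to cell number, and this choice of zero point bears on the small changes. The median log2 fold change of the tested genes with mean normalized counts of 100 or more was −0.05, and that of the 16 housekeeping genes was −0.26, where 3 of them, Ppia, Tfrc and Actb, were called lower. With the zero point at −0.05 all calls of the hedgehog pathway genes were kept. With the zero point at −0.26, Ptchd4 (−2.95), Gli2 (1.01) and Gas1 (0.85) kept theirs, Gli3 lost its call and Sufu gained one. Over all genes, called genes were 2093 lower and 1250 higher as deposited and 1312 lower and 2962 higher with the housekeeping zero point. The direction of Ptchd4, Gli2, Gli3, Gas1 and Sufu was the same under the 3 zero points, and that of Ptch1 and Smo, which were called under none of them, was not.

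**Figure D4:**
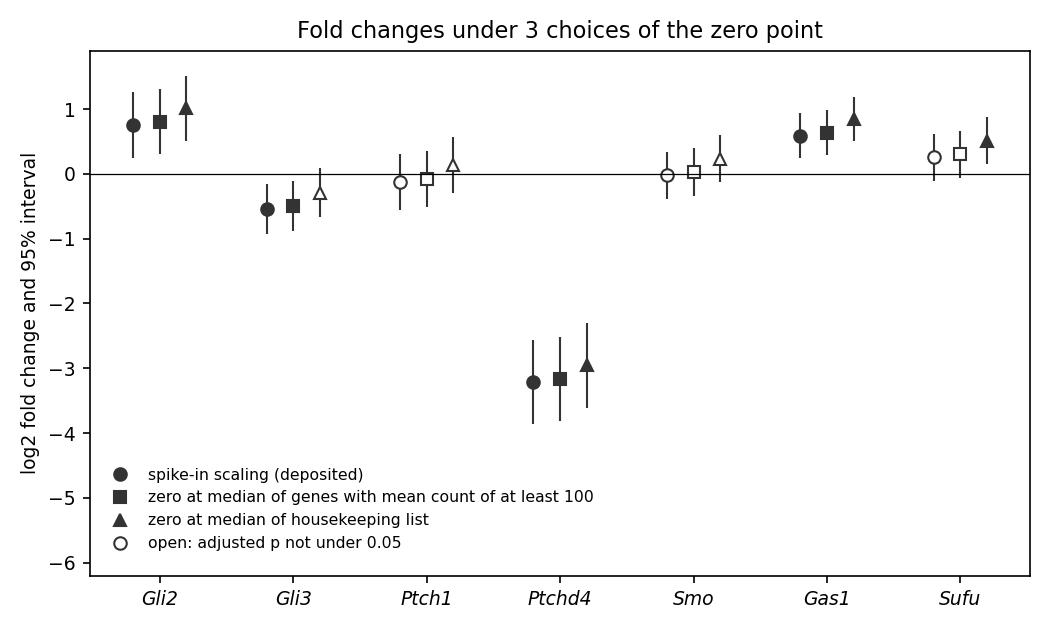
Log2 fold change and 95% interval of each tested hedgehog pathway gene with the zero point as deposited (circles), at the median of genes with mean normalized counts of 100 or more (squares) and at the median of the housekeeping list (triangles); open symbols were not called. Ptchd4 stays between −3.21 and −2.95, Gli3 is open only with the housekeeping zero point and Sufu is filled only there.

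Beyond the 9 genes, 7 lists with 143 other genes of the pathway and its machinery were examined, of which 120 were tested, 18 called lower and 15 called higher. Over all tested genes 12.5% were called lower and 7.45% higher, and among those with mean normalized counts of 100 or more 18.1% and 9.49%, and the counts of each list are read against these shares. On the side of the signal, none of the 4 tested genes for ligands and their release was called by the authors' DESeq2 test, and 0 had an unadjusted p under 0.05. The ligand genes, named here for their role and not by the rule for named genes, were not expressed at a level that could be tested. Shh was listed at 0, and Ihh and Dhh had mean normalized counts of 0.501 and 0.782. Disp1, which releases the lipid-modified ligand, had a log2 fold change of −0.11 ± 0.17 (SE, adjusted p = 0.700), and the ligand acyltransferase gene Hhat had −0.25 ± 0.25 (adjusted p = 0.462).

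Of 7 other receptor and coreceptor genes, 2 rose and 0 fell, with a median of −0.02. Gpc3, a glypican that competes with Ptch1 for ligand, rose 7.60-fold, by 2.93 ± 0.48 on the log2 scale (SE, adjusted p = 3.63e-09), at a mean normalized count of 40.1. Cdon, a coreceptor that acts alongside Gas1, rose by 0.48 ± 0.18 (adjusted p = 0.0253). The glypican genes Gpc4 and Gpc6 had 0.34 ± 0.17 and −0.14 ± 0.17 and were not called as deposited. With the housekeeping zero point Gpc4 was called higher, at 0.60. Boc, the third coreceptor of the Gas1 and Cdon group, had −0.10 ± 0.21 (adjusted p = 0.789) and was named for its role. Of the coreceptor genes Gas1, Cdon and Boc, 2 were therefore called higher and 1 was not called.

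Of 14 tested regulators of Smo, 2 fell and 0 rose, with a median of −0.05. Evc, a ciliary partner through which Smo acts on the GLI factors, fell by 1.11 on the log2 scale (SE 0.24, adjusted p = 9.58e-06). Arrb2, an arrestin that takes part in Smo trafficking, fell by 1.00 (SE 0.25, adjusted p = 0.000103). The casein kinase genes Csnk1a1 and Csnk1e had −0.23 ± 0.15 and −0.08 ± 0.15 and were not called. Smo itself was not called, as given above, although these 2 partners were. Their relatives in the list, named for their role, were not called either. Evc2, for another ciliary partner of Smo, had −0.44 ± 0.23, and the arrestin gene Arrb1 had −0.69 ± 0.37. Iqce and Efcab7, for anchors of the Evc complex, had 0.14 ± 0.20 and −0.01 ± 0.41.

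Of 21 tested genes for the processing and turnover of GLI proteins or for GLI-related factors, 1 rose and 0 fell, with a median of 0.03. It was Glis3, a zinc finger factor related to the GLI factors, which rose by 1.77 ± 0.19 (SE, adjusted p = 9.15e-19). Prkar1a and Gsk3b, components of the kinases that mark GLI proteins for processing, had −0.16 ± 0.15 and 0.13 ± 0.15 and were not called as deposited. With the housekeeping zero point 6 genes of this list were called higher, Gsk3b among them.

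Of 49 tested genes of the primary cilium and intraflagellar transport, 7 fell and 7 rose, with a median of 0.08. Dync2h1, the motor of retrograde transport in the cilium, fell by 0.74 (SE 0.19, adjusted p = 0.000276), and Rab34, a GTPase of cilium formation, fell by 0.66 (SE 0.17, adjusted p = 0.000421). The transition zone genes Cc2d2a and Cep290 fell by 0.86 (SE 0.24) and 0.56 (SE 0.21). Bbs9, a BBSome subunit, rose by 1.72 ± 0.29 (adjusted p = 5.46e-09). The transport genes Ift20, Kifap3 and Ift46 rose by 0.76 ± 0.16, 0.70 ± 0.16 and 0.68 ± 0.20, while Ift74 and Ift43 were not called, at −0.10 ± 0.17 and −0.08 ± 0.17. These counts depended on the zero point, with 4 genes lower when it was set at genes with mean normalized counts of 100 or more, and 3 lower against 14 higher when it was set at housekeeping genes.

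Genes reported elsewhere as GLI targets moved in both directions, with 10 of 23 tested genes lower and 4 higher and a median of −0.02. Ccnd1, the cyclin of the G1 phase, fell by 2.70 on the log2 scale (6.51-fold, SE 0.17, adjusted p = 5.53e-52). Angpt1, an angiopoietin, fell by 1.65 (SE 0.22), the survival gene Bcl2 by 1.53 (SE 0.22) and the cyclin gene Ccnd2 by 0.99 (SE 0.16). Sox9, a transcription factor of cartilage formation, rose 8.22-fold, by 3.04 ± 0.15 (adjusted p = 4.88e-85). Spp1 (osteopontin), the transcription factor gene Osr1 and the Wnt antagonist gene Sfrp1 rose by 1.22 ± 0.19, 1.19 ± 0.25 and 1.09 ± 0.33. Snai2 and Snai1 were not called as deposited, at 0.31 ± 0.16 and 0.22 ± 0.18. With the housekeeping zero point both were called higher, at 0.57 and 0.48. Many genes of this list answer to other pathways as well. Of the target genes among the 9, Gli1 and Hhip had no reads and could not be tested, and Ptch1 was tested but not called.

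Among 6 tested genes with a sterol-sensing domain or a Patched domain, Npc1, which exports cholesterol from lysosomes, rose by 0.56 ± 0.19 (SE, adjusted p = 0.00970) and none fell, so that no other tested gene of this family moved with Ptchd4. Scap, which escorts the regulators of sterol synthesis, had 0.10 ± 0.17 and was not called.

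**Figure D5:**
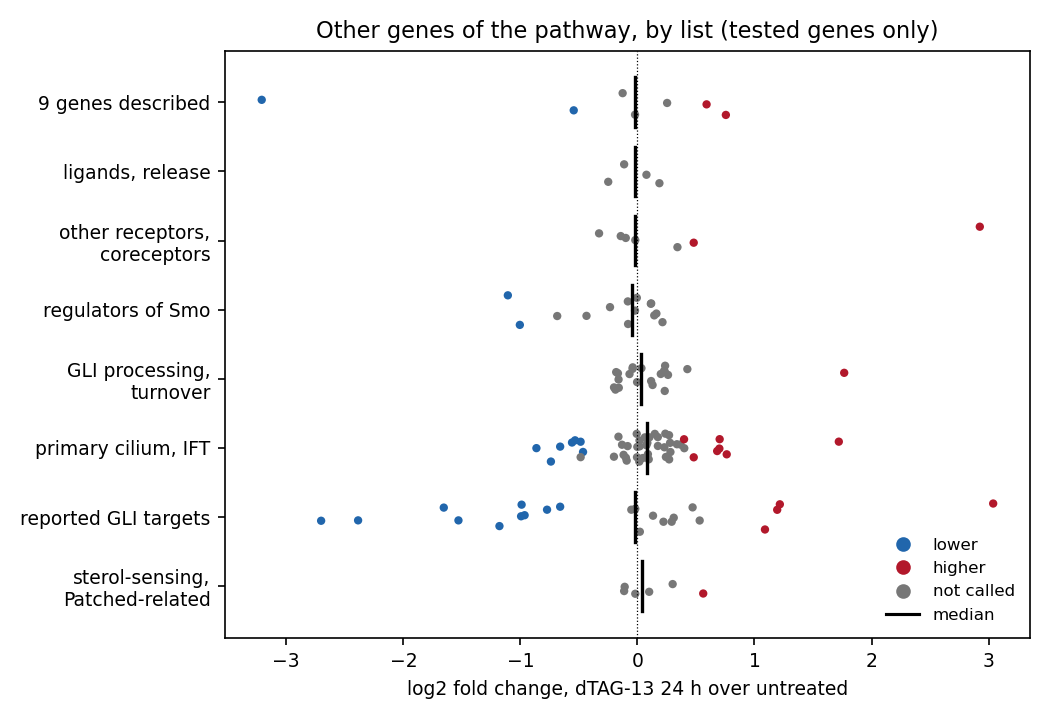
Log2 fold changes of the tested genes in the hedgehog pathway group and in each of the 7 other lists (1 point per gene, coloured by call, with the median as a bar). All medians lie between −0.05 and 0.08, with called genes on both sides for the 9 genes described, the cilium list and the reported GLI targets.

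Calls among the chromosomal neighbours of the hedgehog pathway genes were about as frequent as over all tested genes. Of the 18 nearest tested genes, 1 on each side of each gene at gaps of 1.15 to 1354 kb, 2 were lower and 2 higher, against 12.5% and 7.45% of all tested genes. Beside Ptchd4, Cd2ap at 288 kb fell by 0.45 (SE 0.19, adjusted p = 0.0424) and Mmut, at 1354 kb on the other side, rose by 0.60 ± 0.18. Neither neighbour came near the size of the Ptchd4 fall. Beside Gas1, the non-coding gene Gm35333 at 245 kb rose by 2.66 ± 0.91 at a mean normalized count of 11.4, while Tut7 had 0.31 ± 0.18 and was not called. The nearest tested genes of Gli2, Gli3, Ptch1, Smo, Hhip and Sufu on either side were not called, among them Inhba beside Gli3 (0.00 ± 0.16) and Fancc beside Ptch1 (0.25 ± 0.24). Both neighbours of Gli2, Tfcp2l1 and Gm26831, had mean normalized counts of only 3.62 and 2.73 (SEs 0.41 and 0.48), so they say little about its surroundings. Gm9512 beside Gli3 (5.83) and Tspan33 beside Smo (3.15) had low counts as well. Gli1, without reads, lay 18.1 kb from Mars1, which fell by 0.87 (SE 0.17). Gli3, Ptch1 and Gas1 all lie on chromosome 13, where 1 fell, 1 was not called and 1 rose.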

How the data were processed

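Groups came from the sample titles and labels (3 untreated and 3 dTAG-13 libraries at 24 h, a time that is in the titles but not in the treatment protocol). According to the study's methods, the authors trimmed reads with Trim Galore, aligned them with STAR to mm10 (GRCm38), counted them with featureCounts, normalized to ERCC spike-ins, tested with DESeq2 and shrank fold changes with apeglm. Versions were not given in the sources used here, and the submitters' processing notes also name BWA, SAMtools, MACS2 and deepTools. The deposited signal is a mean normalized count over all libraries. The deposited log2 fold change and its standard error are shrunken values of dTAG-13 over untreated. The deposited p-value is the authors' 2-sided DESeq2 test, adjusted by Benjamini-Hochberg over 16773 genes. These comparison columns are the authors' own results and the only values per gene, so no group test could be run, library depths remain unknown, and 2 further deposited lists, excerpts of the same table, were not used.

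Computed here, with numpy 2.4.6, scipy 1.17.1, pandas 2.3.3 and matplotlib 3.10.9 under Python 3.11.15, were calls at an adjusted p under 0.05, normal 95% intervals, ranks, list counts and sequence features. The number of libraries was read from 8923 genes with mean normalized counts of 3 or less, which were all whole-number combinations of 5 values within a tolerance of 1e-09. For another zero point, a z from the p-value and sign was shifted by the new zero over the SE. The p-values were then adjusted anew over the same genes. This is an approximation, since the deposited p-values do not follow exactly from the shrunken fold changes and SEs. It was run on simulated data whose p-values were made from the fold change and SE. That run could not test this mismatch, so recentred adjusted p-values are approximate. Positions came from GENCODE M21 (GRCm38) and promoters from RefSeq GRCm38.p6. The members and lists were chosen with earlier results of these data known. Named were all 9 hedgehog pathway genes, up to 4 called genes per direction with the smallest adjusted p and up to 2 uncalled genes with the highest mean normalized count in each list, and the nearest tested genes. Alternatives were other zero points, filters on low counts, thresholds and a fold rule. Some genes that this rule names are not reported here.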

Additional observations from a re-analysis of the deposited data

How the results depend on the processing

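The calls of Ptchd4, Gli2 and Gas1 were kept under all 7 alternatives, and 0 of the 49 comparisons of a single hedgehog pathway gene with its deposited call turned direction while called. The count of hedgehog pathway genes called lower dropped from 2 to 1 with the zero point at the housekeeping genes, at an adjusted p under 0.01, and with an absolute log2 fold change over 0.58 required as well, in each case through Gli3. Gli3 had 0.185 as its recentred adjusted p with the housekeeping zero point. Sufu was called higher there only. As deposited, 62.6% of all called genes were lower, against 56.8% and 30.7% with the zero points at genes with mean normalized counts of 100 or more and at the housekeeping genes. For the other pathway lists together, 33 genes were called as deposited and 46, with 14 lower and 32 higher, with the housekeeping zero point. No paired analysis was possible because the table gives no values of single libraries and so carries no replicate numbers, and leaving out each library in turn was not run for the same reason. Gli1 and Hhip gave no value under any setting. The depth of single libraries is unknown, and changes within the intervals of Ptch1, Smo and Sufu are not excluded.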

Other observations

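Inside the span of Ptch1, on the same strand, lies A930032L01Rik (chr13:63567098-63568054), a transcript annotated as still to be experimentally tested, which was singled out after its value was seen. In the authors' deposited table it rose by 4.02 ± 1.55 on the log2 scale (SE, adjusted p = 0.00451 by DESeq2), at a mean normalized count of 6.30. Its 95% interval runs from 1.98-fold to 133-fold. Ptch1 itself was not called, at −0.13 ± 0.22. Whether these reads came from a separate transcript or from introns of Ptch1 was not tested.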
